A study of Mus musculus with 9 samples.

Results

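Malat1 and Neat1 are long noncoding RNAs that are kept in the nucleus, and both were measured in melanocytes, the pigment-making cells of skin, after these had been purified by FACS out of mouse epidermis. They are 2 of the 16299 genes in the deposited table and were found there by gene symbol. Malat1 was chosen by a measured value of these data, its higher level in knockout back than in knockout tail melanocytes, and Neat1 is its neighbour on the chromosome, so every comparison of Malat1 that involves back is a description without a test. The knockout back group came from back epidermis of mice of genotype Spry1flox/flox k14-Cre-ERT2. The knockout tail group came from tail epidermis of the same genotype. The control tail group came from tail epidermis of Spry1flox/flox mice without Cre. Each group had 3 libraries, and the floxed Spry1 gene, a feedback inhibitor gene of receptor tyrosine kinases, was common to all of them. The keratin 14 promoter drives Cre in keratinocytes of the basal layer, which are neighbours of the sorted cells and not those cells themselves. ERT2 makes Cre depend on a ligand such as tamoxifen, but the labels give neither an agent nor an age, and control back libraries were not analysed here. Genotype can therefore be compared only in tail, and body site only among knockouts. Whether the libraries of a group come from different mice is not stated, so each p-value reflects the spread among these libraries alone. That spread may be technical, and in deposited levels it is the spread left after an adjustment between libraries that is described below.

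Malat1 gathers at nuclear speckles, the compartments that store splicing factors, and it is among the most abundant noncoding transcripts of mammalian cells. Neat1 is the scaffold of paraspeckles, nuclear bodies that hold RNA-binding proteins such as Nono and Sfpq. Its long isoform builds the body, and a short isoform shares the same start. Neither Malat1 nor long Neat1 ends in an ordinary poly(A) tail. In both, RNase P cuts the primary transcript just before a small tRNA-like RNA, and the new end is shielded by a triple helix of U-rich stretches with a genome-encoded A-rich tract. The tRNA-like RNA cut from Malat1 is called mascRNA.

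The genes lie beside each other on mouse chromosome 19 in GRCm38, both on the minus strand and both annotated as lincRNA by GENCODE vM21. Malat1 (ENSMUSG00000092341.3) spans chr19:5795690-5802672 and its longest annotated transcript has 6983 bases. Neat1 (ENSMUSG00000092274.3) spans chr19:5824708-5845478 and its longest transcript has 20771 bases, against 3004 for the short isoform. A gap of 22035 bases parts them. The table holds 1 value per gene, so the Neat1 isoforms could not be told apart. Library preparation used the SMART-Seq v4 kit, which primes on runs of A, and how either RNA was primed was not tested.

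The ends of both RNAs are shown because they are the feature the pair shares outside expression. They are given 5′ to 3′ on the minus strand, from GENCODE vM21 transcripts of GRCm38. Capitals mark the A-rich motif AAAAAGCAAAA and the U-rich motifs TTTTTCTTTT and TTTTGCTTTT, searched on the transcript strand only. The Malat1 stretch is chr19:5795982-5796081, positions 6592 to 6691 of the longest transcript. The Neat1 stretch is chr19:5824708-5824807, positions 20672 to 20771.
Malat1 end: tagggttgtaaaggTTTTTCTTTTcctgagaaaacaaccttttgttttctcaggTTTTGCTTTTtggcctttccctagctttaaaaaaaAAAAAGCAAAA
Neat1 end: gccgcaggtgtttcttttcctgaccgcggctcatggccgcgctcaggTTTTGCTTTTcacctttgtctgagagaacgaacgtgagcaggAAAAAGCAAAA

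Both stretches of 100 bases close with AAAAAGCAAAA, and both hold TTTTGCTTTT, which is part of the longest run that they share before that tract, the 16 bases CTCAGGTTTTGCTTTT. The motif TTTTTCTTTT is in the Malat1 stretch and was not found, letter for letter, in the Neat1 stretch. Across 2333249 windows of 100 bases tiled over all GENCODE vM21 transcripts, AAAAAGCAAAA was in 0.0222%, TTTTGCTTTT in 0.06% and TTTTTCTTTT in 0.209%. AAAAAGCAAAA and TTTTGCTTTT stood together in 2 of these windows. Windows began at the first base of each transcript, and a last part shorter than 100 bases was left out. The motifs at the end of the longest Neat1 transcript lie in such a part and were not scanned. All 3 motifs had been read from these 2 ends, so the window shares are no test of the ends. A match of letters is a description of the sequence and was not related to the levels measured here.

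The small RNAs that follow each end are printed for comparison. The first is mascRNA, whose position is that of RefSeq for GRCm38, chr19:5795924-5795981, 58 bases that begin directly after the A-rich tract. The second, Gm27702 of GENCODE, is annotated as a small RNA of 56 bases at chr19:5824652-5824707, directly after the end of Neat1.
mascRNA: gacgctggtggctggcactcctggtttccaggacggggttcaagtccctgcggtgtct
small RNA after Neat1: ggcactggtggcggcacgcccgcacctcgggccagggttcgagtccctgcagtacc

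Values are given on 2 scales. The deposited level is on a log2 scale, from which a shift between 2 sets of libraries had been removed before deposit. The smaller set is the third knockout back and the third knockout tail library, and the larger set is the other 7. The normalised count is a recovered whole count divided by the size factor of its library, and it does not contain that shift removal. Recovered totals in M (mega) counts lay between 47.7 and 57.1 in knockout back, between 45.7 and 65.6 in knockout tail and between 66.3 and 67.9 in control tail, and at these totals libraries vary by more than counting error. The first back library, with 4628 genes at 0 counts, and the second, with 6127, stood apart from the range of 854 to 1739 elsewhere. The differences of Malat1 and Neat1 that involve back, and the medians of the gene lists on which the text dwells, are therefore also given without them. These values in deposited level keep the shift removal that had been made with those 2 libraries included, so they are not independent of them. Libraries also differed in Xist, the nuclear RNA of the inactive X chromosome, whose values are given with the other nuclear RNAs below.

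Malat1 was far above every other lincRNA gene of the table per length. Over the 9 libraries it averaged 68605 normalised counts per kb (kilobase of the longest annotated transcript), against 9779 for the next of the 373 lincRNA genes, Gm10076. Neat1, at 708 per kb, ranked 23. By library, Malat1 exceeded Neat1 per kb 95.8-fold, 137-fold and 94.1-fold in knockout back. That ratio was 79.3, 149 and 19.4 in knockout tail and 129, 165 and 88.1 in control tail. The lowest ratio, in the third knockout tail library, came with the lowest Malat1 of all 9 libraries, 131447 normalised counts, and the highest Neat1 of the tail libraries, 20196.

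Malat1 was highest in back melanocytes and lowest in knockout tail melanocytes. Its normalised count was 921545, 988449 and 448026 in knockout back, 263729, 328733 and 131447 in knockout tail, and 402855, 366549 and 460305 in control tail. Every back library lay above every knockout tail library, and every knockout tail library below every control library. The third back library, at 448026, lay within the range of the controls. Group means were 786007 ± 294605 in knockout back, 241303 ± 100536 in knockout tail and 409903 ± 47274 in control tail (SD, n = 3 each). Malat1 alone held 1.62%, 1.77% and 0.801% of all recovered counts in knockout back, 0.498%, 0.614% and 0.249% in knockout tail, and 0.77%, 0.652% and 0.854% in control tail.

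On the deposited scale the 3 groups of Malat1 did not overlap. The level was 19.33, 19.43 and 19.26 in knockout back, 17.53, 17.85 and 17.49 in knockout tail, and 18.14, 18.00 and 18.33 in control tail. Means were 19.34 ± 0.09 in knockout back, 17.62 ± 0.20 in knockout tail and 18.16 ± 0.16 in control tail (SD, n = 3 each). In log2 normalised counts the SD was 0.63 in knockout back, 0.69 in knockout tail and 0.17 in control tail. The scales differ for the third back and the third knockout tail library, which are the lowest of their groups in normalised counts and lie close to the other 2 of their group in deposited level. The removed shift in Malat1, larger set minus smaller set, was 0.96 on the log2 scale, against a median absolute shift of 0.45 over all genes. Control tail has no library in the smaller set, so the shift removal moves both comparisons with the controls and leaves knockout back against knockout tail nearly as it was.

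**Figure D1:**
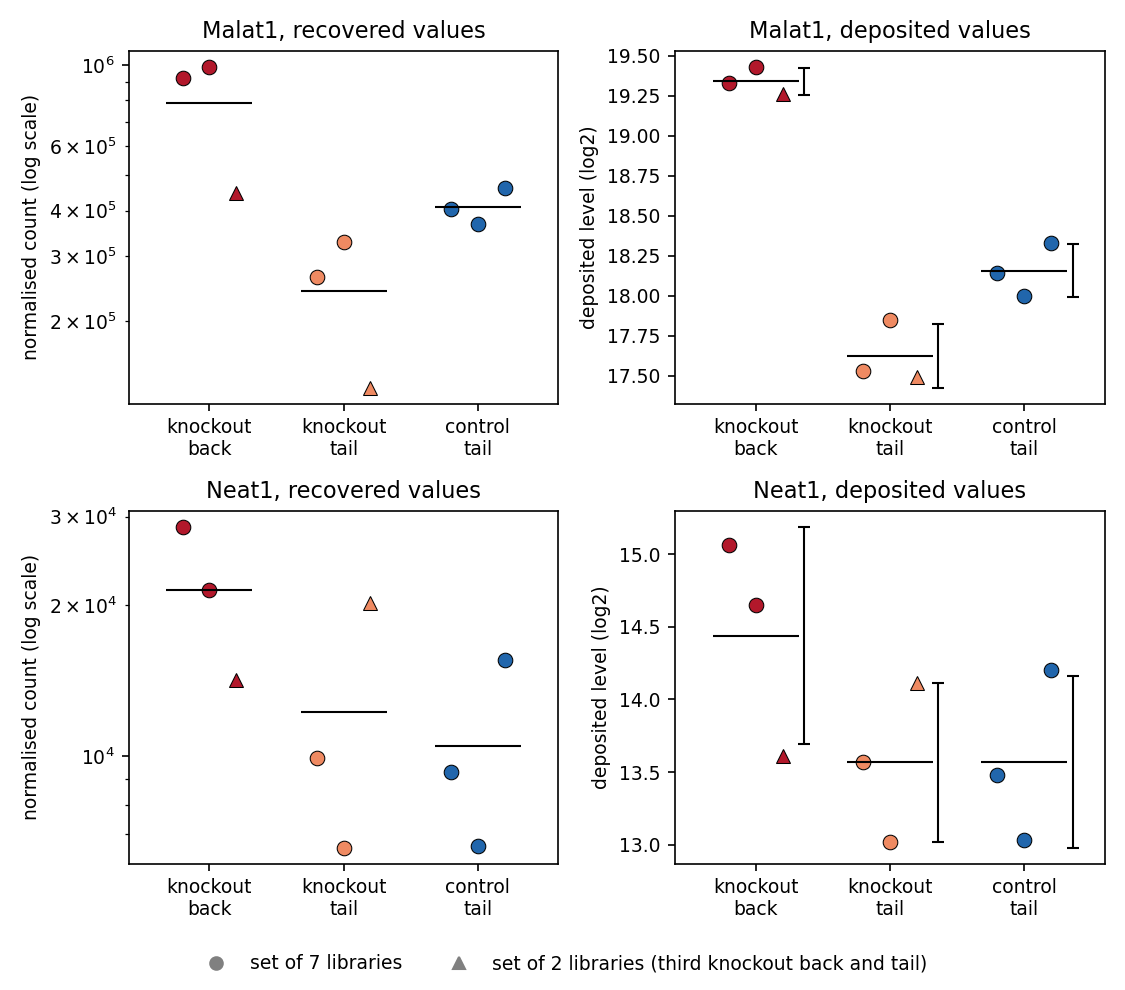
Malat1 (top) and Neat1 (bottom) in each library, as normalised counts on a log axis (left) and as deposited log2 levels (right). Each point is 1 library, triangles are the 2 libraries of the smaller set, lines are group means and bars on the right are ± SD (n = 3). Malat1 in the back libraries runs from 448026 to 988449 normalised counts, above all knockout tail libraries (131447 to 328733), while the groups of Neat1 overlap on both scales.

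Neat1 was less abundant and varied more from library to library. Its normalised count was 28628, 21441 and 14159 in knockout back, 9897, 6569 and 20196 in knockout tail, and 9281, 6622 and 15549 in control tail. The first and second back libraries were the highest of the 9. The third back library lay below the third knockout tail library and the third control library. Means were 21409 ± 7234 in knockout back, 12221 ± 7104 in knockout tail and 10484 ± 4583 in control tail (SD, n = 3 each). Within each tail group the third library was the highest, and replicate numbers carry no stated link between groups.

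The deposited levels of Neat1 overlapped in all 3 groups. They were 15.06, 14.65 and 13.61 in knockout back, 13.57, 13.02 and 14.11 in knockout tail, and 13.48, 13.03 and 14.20 in control tail. Means were 14.44 ± 0.75 in knockout back, 13.57 ± 0.55 in knockout tail and 13.57 ± 0.59 in control tail (SD, n = 3 each). Both tail means were the same to 2 decimals. The removed shift in Neat1 was -0.46, opposite in sign to that of Malat1. Neat1 held between 0.0253% and 0.0503% of recovered counts in knockout back, between 0.0123% and 0.0383% in knockout tail and between 0.0118% and 0.0289% in control tail.

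The comparison of knockout tail with control tail asks how melanocytes differ at 1 body site when Spry1 is targeted in the epidermis around them. Malat1 averaged 0.589 times its control level in normalised counts. The log2 difference was -0.54 in deposited levels (limma, SE 0.13, 95% interval -0.83 to -0.25) and -0.86 in normalised counts, and -0.47 in normalised counts of the larger set alone. The limma 95% interval depended on the scale. It was -1.74 to 0.02 on log2 of the normalised count plus 1 and -1.74 to 0.18 with limma-voom on recovered counts, which both hold 0. In deposited levels with library set as a term it was -0.79 to -0.18. Malat1 was lower in 3 of 3 knockout tail libraries on both scales. Groups that do not overlap in this direction were found in 9.37% of genes in deposited levels and in 9.31% in normalised counts. In deposited levels the limma unadjusted p was 0.0025 and the adjusted p 0.59 over 16299 genes. Both rest on the spread left after the shift removal. The exact two-sided permutation p of 0.1 is the smallest that 3 against 3 libraries allow. Malat1 therefore did not pass the adjusted threshold of 0.05, and neither did any other gene: limma called 0 genes, or 0% of those tested. At an unadjusted p under 0.05 there were 814, and limma-voom on recovered counts called 0 as well. The comparison shares its knockout tail libraries with the one in which Malat1 had been singled out. The first and second knockout tail libraries also differ from all controls in Xist, with 4 and 16 normalised counts against 1416 to 4223. The part of this in the differences of Malat1 and Neat1 was not tested. In sorted bulk RNA, fewer cells with the transcript and less of it per cell cannot be told apart.

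Neat1 did not differ detectably between knockout tail and control tail. The log2 difference was -0.0049 in deposited levels (limma adjusted p = 1, SE 0.45) and 0.15 in normalised counts, so its sign depended on the scale. The 95% interval of -1.02 to 1.01 still holds differences of 1 log2 unit in either direction. The exact two-sided permutation p was 0.9 in deposited levels and 0.8 in normalised counts. In normalised counts the first knockout tail library lay inside the control range of 6622 to 15549, the second just below it and the third above it.

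The comparison of knockout back with knockout tail asks how melanocytes of 1 genotype differ between body sites. Malat1 had been singled out on this difference, so its size is given without a test. In normalised counts the back mean was 3.26 times the knockout tail mean. The log2 difference was 1.72 on both scales, which ranked 227 from the top of 16299 genes in deposited level, where the median gene stood at -0.18. The fold was 3.24 between the first and second libraries of each group and 3.41 between the third libraries. Without the first and second back libraries, the difference in deposited level of the remaining one was 1.63. Groups did not overlap in this direction in 7.53% of genes in deposited level and 4.55% in normalised count.

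Neat1 was higher on average in knockout back than in knockout tail, within the spread between libraries. The log2 difference was 0.87 in deposited level (limma adjusted p = 0.30, SE 0.45, 95% interval -0.14 to 1.89), and limma called 1.5% of all genes in this comparison, 0.411% as higher in back and 1.09% as lower. The ratio of mean normalised counts was 1.75. The exact two-sided permutation p was 0.2 on both scales. The pairs of libraries went opposite ways: the first and second back libraries were 3.07-fold above the first and second knockout tail libraries, while the third back library was at 0.701 of the third knockout tail library. Without the first and second back libraries the difference in deposited level was 0.04. Whether Malat1 and Neat1 differ from each other in their change was not tested.

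Knockout back against control tail joins genotype and site, which cannot be told apart there, and it shares libraries with both comparisons above. Malat1 in back stood at 1.92 times the control mean in normalised counts, 2.34 times in the larger set alone. Its log2 difference was 1.18 in deposited level and 0.86 in normalised counts, given without a test since the back libraries were part of the choice. Without the first and second back libraries it was 1.10 in deposited level, which still holds the shift removal made with them. The groups did not overlap in deposited level, as in 8.68% of genes in this direction. They overlapped in normalised counts through the third back library. Neat1 differed by 0.87 in deposited level (limma adjusted p = 0.25, 95% interval -0.14 to 1.88) and by 1.06 in normalised counts, with an exact two-sided permutation p of 0.2. In this comparison limma called 163 genes, 1% of those tested, with 0.387% higher and 0.614% lower in back.

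**Figure D2:**
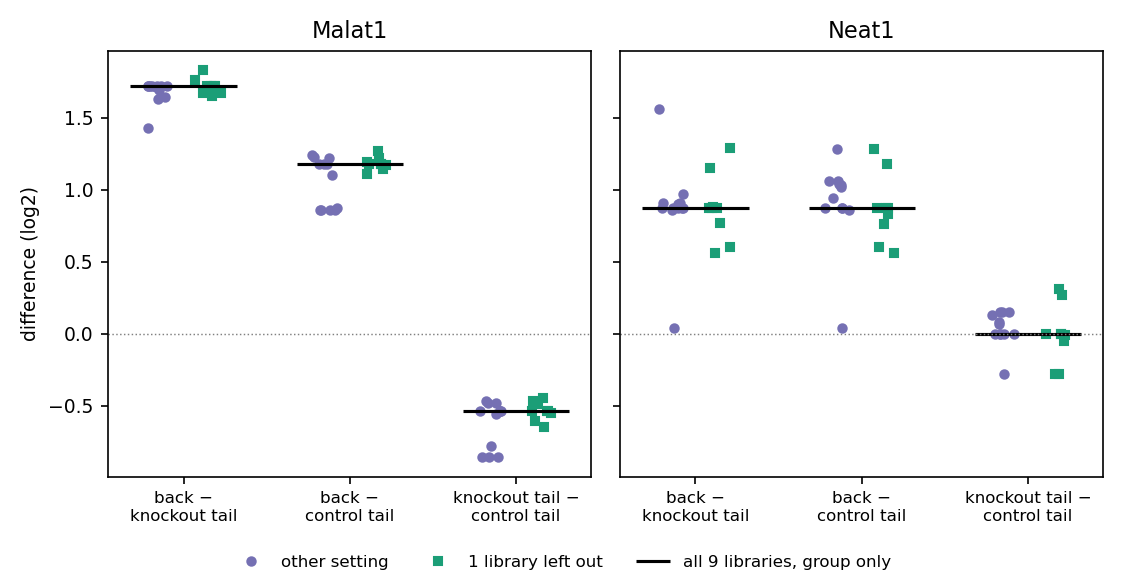
Log2 differences of Malat1 (left) and Neat1 (right) in the 3 comparisons, with all 9 libraries and group as the only term (line), under other settings (circles) and with 1 library left out in turn (squares). Malat1 stays between 1.43 and 1.83 for knockout back minus knockout tail and between -0.86 and -0.45 for knockout tail minus control tail, while Neat1 for knockout tail minus control tail lies on both sides of 0, from -0.28 to 0.31.

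All lincRNA genes summed held 1.85%, 2.01% and 0.979% of recovered counts in knockout back, 0.713%, 0.821% and 0.464% in knockout tail, and 1.01%, 0.882% and 1.13% in control tail. Malat1 supplied most of that: between 81.9% and 88.2% in knockout back, between 53.7% and 74.9% in knockout tail and between 74% and 76.2% in control tail. With Malat1 left out, the share was 0.227%, 0.238% and 0.177% in knockout back, 0.215%, 0.206% and 0.215% in knockout tail, and 0.241%, 0.229% and 0.28% in control tail. With Malat1 left out, the first and second back libraries lay above all knockout tail libraries and the third below them, and all 3 lay inside or below the control range. Of the 373 lincRNA genes, 111 had a positive difference in deposited level between knockout back and knockout tail, with a median of -0.24 beside -0.18 over all genes. On log2 of the normalised count plus 1 it was 89 of 373, with a median of -2.19 beside -0.73 over all genes.

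Other RNAs taken as nuclear were read from a list of 19, of which 13 were measured. Where each of them lies in melanocytes was not measured. None passed between knockout back and knockout tail or between knockout tail and control tail. Their median difference between knockout back and knockout tail was 0.07 in deposited level beside -0.18 over all genes, and -1.04 on log2 of the normalised count plus 1 beside -0.73 over all genes. Tug1, a nuclear RNA found in many tissues, had 8840, 2599 and 2820 normalised counts in knockout back, 1535, 1563 and 3037 in knockout tail and 1755, 523 and 1984 in control tail, and its limma adjusted p between knockout back and knockout tail was 0.38. Oip5os1 had a difference of -0.16 (limma adjusted p = 0.83) and Firre, an X-linked RNA of nuclear organisation, one of 0.09 (limma adjusted p = 0.95). Xist had 1414, 1481 and 2645 normalised counts in knockout back, 4, 16 and 7358 in knockout tail and 4223, 1416 and 3973 in control tail. The first and second knockout tail libraries therefore lack the Xist level of the rest, and Malat1 in them, at 263729 and 328733, lies above the third knockout tail library and below the controls. Snhg11 was the 1 gene of the list that fell in knockout back against control tail (limma log2 difference -2.72, adjusted p = 0.046), where 0.614% of all genes were called lower. It had 0, 0 and 481 normalised counts in knockout back against 1392, 1553 and 2974 in control tail. With 1 library left out in turn it passed in 1 of 9 fits, the one without the third back library (limma adjusted p from 0.0055 to 0.14).

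Long noncoding RNAs that are mainly cytoplasmic or host small nucleolar RNAs were measured for 12 of 14 listed, and none passed in any comparison. Between knockout tail and control tail 0 of 12 had a positive difference in deposited level, with a median of -0.23, and 2 of 12 had one in normalised counts. Gas5, a growth arrest transcript that hosts small nucleolar RNAs, differed by -0.74 there (limma adjusted p = 1). For knockout back against knockout tail the median was 0.27 in deposited level and -0.74 on log2 of the normalised count plus 1, so that its sign depended on the scale.

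Proteins that meet these RNAs were read next. Of 30 paraspeckle proteins all were measured and 0 passed in any comparison. In back against knockout tail 8 were positive, and the median difference of -0.18 stood beside -0.18 over all genes. Nono and Sfpq, which bind Neat1 at the core of the body, differed by -0.18 and -0.90. Hnrnpk, which favours the long isoform in human cells, differed by -0.40 (limma adjusted p = 0.42), and Tardbp by 1.17 (limma adjusted p = 0.13).

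Of 40 nuclear speckle proteins 39 were measured, and 0 passed in any comparison. In back, 27 had a higher mean than in knockout tail, and the median was 0.30 in deposited level, 0.42 there without the first and second back libraries, and 0.34 on log2 of the normalised count plus 1. Son and Srrm2, the scaffold proteins of speckles, differed by 0.38 and 0.55 (limma adjusted p of 0.15 and 0.16). Srsf5, a splicing factor, had 18416, 22374 and 26834 normalised counts in knockout back, 9297, 10381 and 14128 in knockout tail and 9096, 10858 and 15020 in control tail. Its back libraries lay above all tail libraries, at a log2 difference of 0.97 from knockout tail (limma adjusted p = 0.052). All back libraries lay above all knockout tail libraries in 4.55% of genes in normalised counts.

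mRNAs known to be held in the nucleus with unspliced introns had higher means in back for most of the list, and 0 passed singly. Against knockout tail the difference was positive in 20 of 22 and its median was 0.75 beside -0.18 over all genes. Without the first and second back libraries the median was 0.74 beside -0.06. Against control tail it was positive in 18 of 22 and its median was 0.66. Rsrp1, an arginine- and serine-rich protein gene, had 21168, 57729 and 79766 normalised counts in knockout back, 10219, 12266 and 24600 in knockout tail and 14187, 11973 and 10704 in control tail. Its difference between knockout back and knockout tail was 1.63 (limma adjusted p = 0.051), that of Clk1, a kinase of splicing factors, 1.02 (limma adjusted p = 0.095) and that of Ddx5, an RNA helicase, 0.25 (limma adjusted p = 0.46). Between knockout tail and control tail 6 of 22 were positive with a median of -0.19 in deposited level, against 14 of 22 and 0.20 on log2 of the normalised count plus 1, so no direction is given there.

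Factors of RNA processing, among them those that cut or bind the ends printed above, were measured for all 19 listed, and 0 passed in any comparison. The list also holds factors of poly(A) site choice and of RNA methylation, so its counts and medians do not describe the ends alone. In back 3 of the 19 had a higher mean than in knockout tail, and the median difference was -0.40 beside -0.18 over all genes. On log2 of the normalised count plus 1 it was -2.32 beside -0.73, and in deposited level without the first and second back libraries -0.11 beside -0.06. Elac2, which trims the tRNA-like RNA at its other end, differed by -2.11 (limma adjusted p = 0.075). Of the RNase P subunits with the highest levels, Rpp21 differed by -0.29 (limma adjusted p = 0.60) and Pop4 by -0.20 (limma adjusted p = 0.72). Mettl16, which binds the Malat1 triple helix in human cells, differed by 0.0083. In the sparse first and second back libraries 5 and 7 of these 19 genes were at 0 counts, against at most 2 in the other 7, and the part of this in the median was not tested.

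Transcription factors known to raise Neat1 in human or mouse cells, and targets that report them, were measured for all 19 listed. Back had the higher mean against knockout tail in 12, the median difference was 0.29 beside -0.18 over all genes, and 1 gene rose, against 0.411% of all genes. This was Hspa1a, a heat shock chaperone and target of Hsf1 (limma log2 difference 2.47, adjusted p = 0.039). It passed in 3 of 9 fits with 1 library left out (limma adjusted p from 0.024 to 0.12). Without the first and second back libraries its limma adjusted p was 0.27, and the list median was 0.15. Cdkn1a, a target of p53, differed by 0.77 (limma adjusted p = 0.19) and Nfkbia, a target of NF-kappaB, by 0.80 (limma adjusted p = 0.10). Hspa1a had 15989, 41821 and 201616 normalised counts in knockout back, 4106, 4720 and 34102 in knockout tail and 5512, 11601 and 3666 in control tail. The highest of these, in the third back library, is not the library in which Neat1 was highest.

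**Figure D3:**
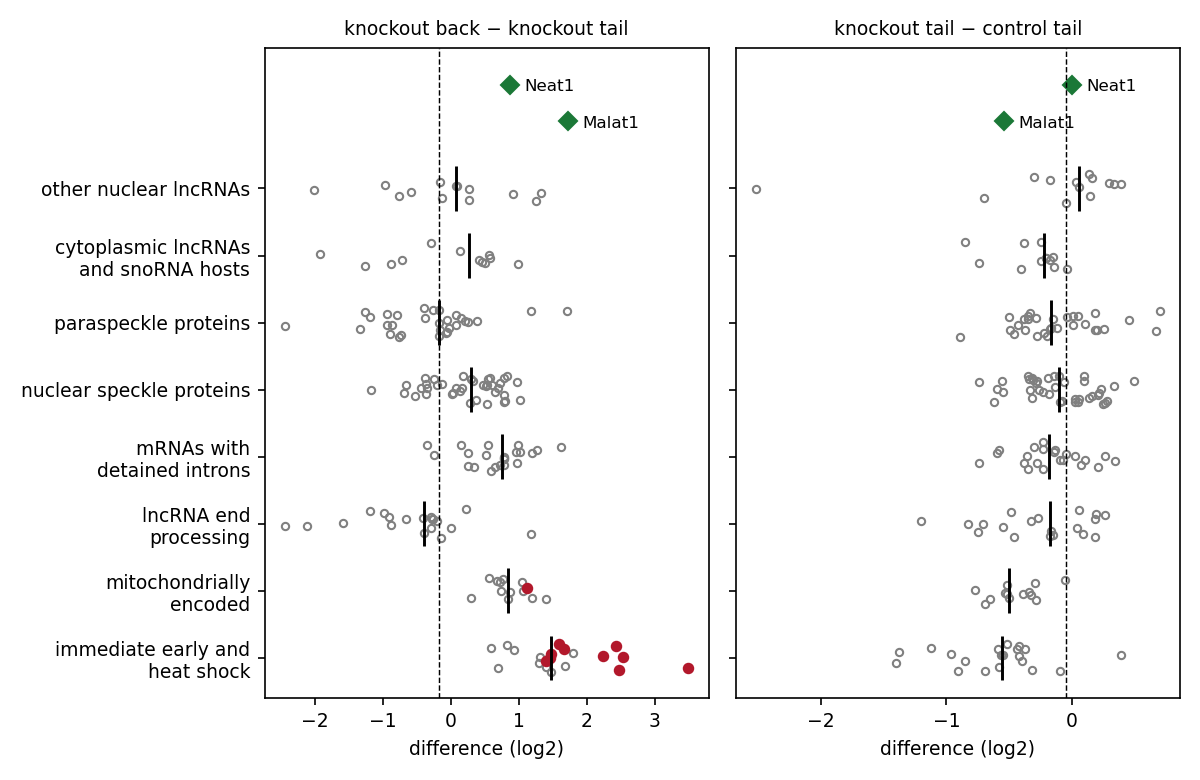
Log2 differences in deposited level for the members of 8 gene lists (circles), with the list median as a bar, beside Malat1 and Neat1 (diamonds). The dashed line is the median of all genes, and filled red circles are genes past the limma adjusted threshold. Between knockout back and knockout tail (left) the lists at the bottom lie to the right of the dashed line, with medians of 0.84 for mitochondrially encoded genes and 1.47 for immediate early and heat shock genes, and in the right panel, knockout tail minus control tail, no list member passed.

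Genes that respond to handling, and mitochondrially encoded genes, were read as signs of how the cells and RNA had fared. Of 20 immediate early and heat shock genes, which are known to rise when cells are taken out of tissue, all 20 had a higher mean in knockout back than in knockout tail. The median difference was 1.47, and 10 rose by limma at adjusted p under 0.05, against 0.411% of all genes: Fos, Fosb, Junb, Egr1, Atf3, Zfp36, Nr4a1, Btg2, Dusp1 and Hspa1a. With 1 library left out in turn the number that passed ran from 0 to 12 and was 0 in 4 of 9 fits. Egr1 passed in 5 of the 9, the most of any, and Dusp1 in 1. Without the first and second back libraries 0 passed, while 20 of 20 were positive with a median of 1.73. Against control tail, where 0.387% of all genes were called higher, 3 rose in back: Fosb by 2.63, Egr1 by 1.74 and Zfp36 by 1.25 (limma log2 differences, adjusted p of 0.039, 0.042 and 0.045). Fosb and Egr1 passed in 3 of 9 fits with 1 library left out there, and Zfp36 in 2. In knockout tail against control tail 1 of 20 was positive in deposited level with a median of -0.56, against 10 of 20 and -0.03 on log2 of the normalised count plus 1. Their summed share of recovered counts was 1.51%, 1.19% and 5.33% in knockout back, 0.594%, 0.654% and 1.28% in knockout tail and 0.696%, 0.963% and 0.791% in control tail. The third back library, highest in these genes, was the lowest back library in normalised counts of Malat1 and of Neat1. All 13 mitochondrially encoded genes also had higher means in back than in knockout tail, by a median of 0.84, or 0.50 without the first and second back libraries. Of them mt-Nd4, a subunit gene of respiratory complex I, passed with a limma log2 difference of 1.12 (adjusted p = 0.0495), and in 1 of 9 fits with 1 library left out. In knockout tail against control tail 0 of 13 had a positive difference on either scale, with a median of -0.50 in deposited level and -0.60 on log2 of the normalised count plus 1, and 0 passed. Their share was 3%, 3.02% and 1.92% in knockout back, 1.43%, 1.67% and 1.73% in knockout tail and 2.21%, 1.99% and 2.8% in control tail, so that back, control and knockout tail averages stand in the same order as those of Malat1. The part of either list in the difference of Malat1 was not tested.

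The sorted cells carried melanocyte genes throughout, and each marker list of other skin cells held a smaller share of counts. Shares of counts are not shares of cells. All 14 melanocyte markers were measured, and the 11 that could be counted held between 2.34% and 2.45% of counts in knockout back, between 2.3% and 2.67% in knockout tail and between 1.84% and 2.06% in control tail. Of the 14, 6 had a higher and 8 a lower mean in knockout back than in knockout tail, with a median of -0.18 beside -0.18 over all genes. Against control tail 10 were higher and 4 lower in back, with a median of 0.21 beside -0.23. Mlana, a melanosome protein, rose in back against knockout tail (limma log2 difference 0.95, adjusted p = 0.021) and against control tail (0.97, adjusted p = 0.036), and passed in 3 and 2 of 9 fits with 1 library left out. Of all genes, 0.411% were called higher in back against knockout tail and 0.387% against control tail. These shares also apply to Trpm1 and H2-Aa below. Trpm1, a cation channel of melanocytes, rose against control tail (limma log2 difference 1.38, adjusted p = 0.04997) and passed in 1 of 9 such fits. The 10 basal keratinocyte markers held between 0.0917% and 0.361% in knockout back, between 0.0353% and 0.656% in knockout tail and between 0.0862% and 0.192% in control tail. The third knockout tail library had the 0.656%, together with the highest Neat1 of the tail libraries and the lowest Malat1 in normalised counts. The 10 markers of differentiated keratinocytes held 0.137%, 0.48% and 0.18% in knockout back, 0.0441%, 0.0408% and 0.419% in knockout tail and 0.113%, 0.251% and 0.0742% in control tail. For 8 of these the mean was higher in knockout back than in knockout tail. Their list had a median difference of 1.10 beside -0.18 over all genes, or 0.26 without the first and second back libraries, and 0 passed. In knockout tail against control tail 2 of 10 were positive, with a median of -0.60. Markers of Langerhans and other immune cells, 11 measured of 14, held between 0.0144% and 0.0441% in knockout back, between 0.00193% and 0.0211% in knockout tail and between 0.00166% and 0.00437% in control tail. Of these 10 had a higher mean in knockout back than in knockout tail, and the class II gene H2-Aa rose (limma log2 difference 2.96, adjusted p = 0.045), as it did against control tail (limma log2 difference 3.06, adjusted p = 0.049), in 1 of 9 fits with 1 library left out each time. It had 2954, 3159 and 3693 normalised counts in knockout back, 0, 0 and 1281 in knockout tail and 0, 5 and 0 in control tail, while Ptprc, the pan-leukocyte marker, had 0, 265 and 21 normalised counts in knockout back. The 9 measured markers of fibroblasts, muscle and blood held between 0.0104% and 0.0388% in knockout back, between 0.01% and 0.142% in knockout tail and between 0.0044% and 0.0136% in control tail. The listed markers of endothelium were not measured. Hba-a1, a haemoglobin gene, had 4250, 3374 and 10552 normalised counts in knockout back, 37988, 42771 and 856 in knockout tail and 3455, 225 and 413 in control tail. Among the 9 the fibroblast collagen gene Col1a2 fell in back against knockout tail (limma log2 difference -1.90, adjusted p = 0.045), where 1.09% of all genes were called lower. It passed in 1 of 9 fits with 1 library left out. It had 48, 44 and 956 normalised counts in knockout back, 1339, 1542 and 2512 in knockout tail and 519, 739 and 659 in control tail. Of the other fibroblast markers Col1a1 differed by -0.14, Col3a1 by 0.05 and Dcn by 0.83 (limma adjusted p of 0.82, 0.85 and 0.39). Malat1 and Neat1 are found in most cell types, and the part of other cells in their levels was not tested.

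The genes around Malat1 and Neat1 were mostly not higher in back than in knockout tail. Of 17 protein-coding genes listed for this stretch of chromosome 19, 16 were measured. The mean was higher in knockout back than in knockout tail for 2 of them, and the median difference was -0.69 beside -0.18 over all genes, or -0.40 beside -0.06 without the first and second back libraries. On log2 of the normalised count plus 1 it was -1.79 beside -0.73. Outside the 17, Rnaseh2c and Kat5 within 200 kb also had higher means in back, by 0.69 and 0.65 (limma adjusted p of 0.22 and 0.30). Frmd8, on the Neat1 side, differed by -0.59 (limma adjusted p = 0.19). Ltbp3, a binding protein of latent TGF-beta on the Malat1 side, had 1906, 2859 and 1021 normalised counts in knockout back, 400, 892 and 3 in knockout tail and 446, 419 and 115 in control tail. The back libraries of Ltbp3 lay above both tail groups, at a difference from knockout tail of 1.74 (limma adjusted p = 0.077). Back lay above knockout tail without overlap in 4.55% of all genes in normalised counts. Cdc42ep2, an effector of the GTPase Cdc42, fell in back (limma log2 difference -1.87, adjusted p = 0.045), with 0 normalised counts in all 3 back libraries against 371, 952 and 286 in knockout tail. It passed in 1 of 9 fits with 1 library left out (limma adjusted p from 0.018 to 0.14), and 1.09% of all genes were called lower.

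Small and antisense transcripts at the locus were low. Gm27505, annotated inside Neat1, had between 1 and 2 normalised counts in knockout back, between 1 and 148 in knockout tail and between 2 and 223 in control tail. Frmd8os, antisense to Frmd8 and close to the start of Neat1, had at most 1 in knockout back, 58 in knockout tail and 67 in control tail. Neither passed in any comparison. Whether counting used strand is not given in the sources used here, so reads of overlapping or antisense transcripts cannot be told apart.

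**Figure D4:**
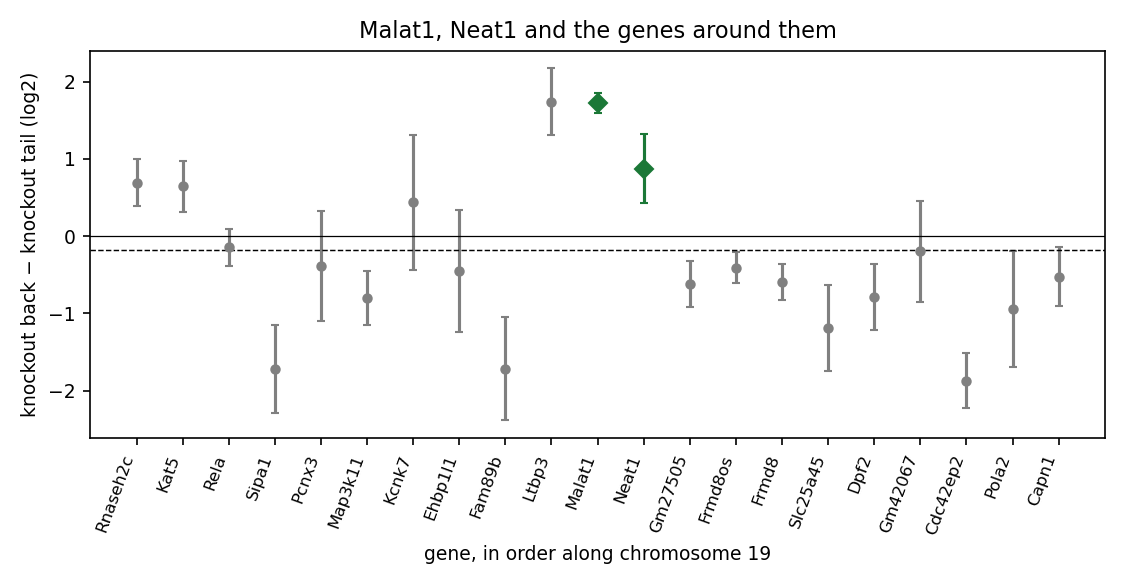
Log2 difference in deposited level between knockout back and knockout tail for 21 measured genes within 200 kb of Malat1, in their order on the chromosome, with bars of ± 1 limma SE. Not every measured gene of the stretch is drawn, so adjacent points need not be adjacent genes. The solid line is 0 and the dashed line the median of all genes. Malat1 at 1.72, Neat1 at 0.87 and Ltbp3 at 1.74 lie high, most other genes lie below 0, and Cdc42ep2 at -1.87 is the lowest.

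The genes most like Malat1 over the 9 libraries were named by Pearson correlation of deposited levels among 12223 genes above the lower quartile of level, as a description. They were Man1a, a mannosidase of N-glycan trimming (r = 0.990), Cox7c, a subunit of cytochrome c oxidase (r = 0.987), Pnrc1, a nuclear receptor coactivator (r = 0.978), Klf9, a Krüppel-like transcription factor (r = 0.976), and Fundc1, a mitophagy receptor (r = 0.975). On log2 normalised counts these correlations were 0.480, 0.755, 0.786, 0.946 and 0.810, so that only Klf9 of the 5 stayed above 0.9. Klf9 had 4265, 4584 and 3882 normalised counts in knockout back, 1473, 2112 and 824 in knockout tail and 1917, 2008 and 2525 in control tail. Its back libraries lay above all others, and in 4.55% of all genes back lay above knockout tail without overlap in normalised counts. Klf9 was named for its likeness to Malat1, which had been chosen for its higher level in back. The 9 points of each correlation share their groups and library sets.

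The genes most like Neat1 by the same measure were Nhlrc3 (r = 0.978), Wwp1, a ubiquitin ligase (r = 0.965), Hmgcs1, an enzyme of cholesterol synthesis (r = 0.951), Akr1b10, an aldo-keto reductase (r = 0.950), and Atxn1, the ataxin-1 gene (r = 0.949). On log2 normalised counts they were 0.916, 0.893, 0.951, 0.673 and 0.652. Hmgcs1 had 22599, 21778 and 12879 normalised counts in knockout back, 8588, 7698 and 14481 in knockout tail and 8816, 6909 and 10802 in control tail, with the third library the highest of each tail group and the lowest of the back group, as in Neat1. Malat1 and Neat1 themselves correlated at r = 0.603 in deposited levels and 0.372 in log2 normalised counts, and Neat1 ranked 1378 among the genes compared with Malat1.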

How the data were processed

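RNA was sequenced from 9 libraries of sorted mouse melanocytes, in 3 groups of 3. The deposited table gives 16299 genes on a log2 scale. The submitters' processing notes name DESeq2 and GRCm38. No aligner, counter or strand setting is given in the sources used here. The deposited log2 values followed a variance-stabilising curve on which 0 counts gives 7.98, and in every gene the means of the 2 library sets were equal to within 7.14e-09. Undoing curve and shift gave whole counts for 16296 genes, to within 0.004 of a whole number. Counts of Dct, Pmel and Tyrp1 were too high for this. The size factors matched the median of ratios to within 0.000656. Recovery and model were tested on simulated data.

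The test was limma 3.58.1 (R 4.3.3) with a mean-variance trend and robust moderation. It used the deposited values in all 9 libraries, no term other than group, and Benjamini-Hochberg adjustment over all genes at 0.05. Intervals are from that fit. The shift removal before deposit rested on the same libraries, and the SE, intervals and p-values of the fit do not carry its uncertainty. Permutation tests are exact and two-sided. Symbols matched GENCODE vM21 for 15905 genes, by which coordinates and types are given. The members, the 15 gene lists and the alternatives were chosen with earlier results of these data known, so list counts are descriptions. Of each list the text names members past the threshold, others of the highest level, and a few chosen after their values were seen (Nono, Sfpq, Tardbp, Clk1, Elac2, Mettl16, Ltbp3, Rnaseh2c, Kat5, Ptprc, Col1a1, Col3a1, Dcn). Alternatives were other normalisations, scales, filters and terms, and fits without 1 or more libraries, those of the list members and of their medians being added after the data were seen. Where back keeps 1 library, it is assumed to vary like the other groups. Fits on deposited values that leave libraries out keep the shift removal made with all 9. With 3 libraries a group, no library was tested as an outlier. Values of 2 genes are counted in their lists but not reported here.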

Additional observations from a re-analysis of the deposited data

How the results depend on the processing

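Malat1 between knockout back and knockout tail kept its direction in all 21 alternatives, from 1.43 to 1.83, with 1.43 under quantile normalisation and 1.65 to 1.83 with 1 library left out. Between knockout back and control tail it was 0.87 under quantile normalisation and 0.86 with log2 of the normalised count plus 1 or plus 16, with limma-voom and with the removed shift put back, against 1.11 to 1.27 with 1 library left out. Between knockout tail and control tail it ranged from -0.86 to -0.45 (limma adjusted p from 0.31 to 1), or -0.65 to -0.45 with 1 library left out. Neat1 passed in none of the 21 alternatives. Between knockout tail and control tail its sign turned: it was 0.15 with a pseudocount of 1 or 16 and with the set shift put back, 0.07 with library set as a term, 0.08 with limma-voom, 0.13 with limma-voom and the set term, and -0.28 to 0.31 with 1 library left out (0.31 without the third control and 0.27 without the second knockout tail library). Between knockout back and knockout tail Neat1 was 0.56 to 1.29 with 1 library left out (0.56 without the first back library), 1.56 in the 7 libraries of the larger set and 0.04 without the first and second back libraries. Between knockout back and control tail the same settings gave 0.56 to 1.28, 1.28 and 0.04. The cause of these moves was not tested.

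Counts of called genes depended on the processing far more. Between knockout tail and control tail 0 genes became 4 and 7 with a pseudocount of 1 and 16, 10 with the set term and 6 with the shift put back, and stayed at 0 in each fit with 1 library left out. Between knockout back and knockout tail the 244 became 139 and 35 with the pseudocounts, 71 with the set term, 31 with the shift put back and 1637 in the larger set. They were 0 without the first and second back libraries, and 3 to 1972 with 1 library left out, with 3 without the third knockout tail library and 1972 without the third back library. Between knockout back and control tail the 163 became 579 under quantile normalisation, 557 with the filter on low levels, 338 with a pseudocount of 1, 471 without trend and robust moderation, 545 with the set term, 317 with limma-voom, 428 with limma-voom and the set term and 2371 in the larger set. They were 0 without the first and second back libraries, and 0 to 2804 with 1 library left out, with 2804 without the third back library. Leaving out any 1 library moved each of these last 2 counts by over 1.5 times.

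With replicate number as a block the counts were 0, 21 and 42, and the differences of Malat1 and Neat1 were the same to 2 decimals. In deposited levels, deviations of libraries with the same number correlated between -0.70 and 0.08. The -0.70 belongs to the 2 libraries of the smaller set, and the other such pairs ran from -0.17 to 0.08. In every gene the mean of the smaller set had been made equal to that of the larger set before deposit. A deviation shared by its 2 libraries had thus been removed, so these correlations cannot decide whether the numbers are a pairing. The numbers carry no stated link between groups and are not taken as a pairing.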
